A study of Drosophila melanogaster with 21 samples.

Results

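The 10 genes described here encode Tiggrin (Tig) and 9 other proteins of the basement membrane or of its assembly and turnover: the type IV collagen chains vkg and Col4a1, the laminin chains LanA, LanB1 and LanB2, perlecan (trol), nidogen (Ndg), the collagen-binding glycoprotein SPARC, and Timp, the inhibitor of matrix metalloproteases. They were chosen by name, as Tig together with the core genes of the basement membrane, and are 10 of the 17559 genes of the deposited table. The question was whether Tig moved with the other matrix genes when single fly heads were compared within and between the groups of an appetitive memory experiment. The RNA came from 21 heads of single female Drosophila melanogaster: 5 from untrained fed flies (labelled naive), 5 from starved flies that were not trained (starved_naive), 6 from starved flies taken 1 h after training with an odor and sucrose (starved_trained_1hr) and 5 from starved flies taken 4 h after the same training (starved_trained_4hr). No transgene or mutation is named for any of these groups, and strain and age are not given for these heads in the sources used here. Each head is 1 fly and 1 library, and the odor alone or sucrose alone was not among the groups analysed here. A trained head therefore differs from a starved head at least by the odor, the sugar and the hours after training, and from an untrained fed head also by starvation. The study does not state for these heads whether the flies were fed again after training, or how many training runs they came from.

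A basement membrane is a thin sheet of extracellular matrix that lines muscle, fat body, gut and the nervous system. Laminin trimers of an alpha, a beta and a gamma chain and a network of type IV collagen form the sheet, nidogen and perlecan bind both, and SPARC binds collagen IV. Cells hold to it through integrins, and Tiggrin is a matrix ligand of the PS2 integrin, known from muscle attachment sites of the embryo. In the larva, fat body and hemocytes release much of the collagen IV that other tissues incorporate.

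In the head, SPARC was by far the most abundant of these RNAs per length. RPKM is the number of reads of a gene scaled to its length and to the size of the library, so levels of different genes can be set side by side. Comparisons between heads also depend on the scaling, since total RPKM per head ran from 381084 to 820048. Other scalings are given at the end. Over the 21 heads the median level was 197 RPKM for SPARC, 61.5 RPKM for Timp, 37.2 RPKM for Col4a1, 24.4 RPKM for vkg, 21.3 RPKM for trol, 17.0 RPKM for Tig, 12.8 RPKM for Ndg, 8.95 RPKM for LanB2, 7.27 RPKM for LanA and 6.57 RPKM for LanB1. The ranges of each gene and the next in this order overlapped, for SPARC and Timp through 1 head (1 h replicate 3, with 68.9 RPKM of SPARC and 86.5 RPKM of Timp). The fewest reads on any of the genes in a head were 675, for Ndg, and Tig had 1828 to 11392 reads per head. Fewer cells of a type and less RNA per cell cannot be told apart in whole heads.

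Levels differed more between heads for some of the genes than for others. Over all 21 heads the highest held 5.93 times the Tig level of the lowest, while the same ratio was 2.19 for Timp and 2.40 for trol. Within a group it ran from 1.74 (untrained fed) to 3.92 (4 h) for Tig. Within groups the coefficient of variation of Tig was 22.9% in untrained fed heads, 34.6% in starved heads, 21.2% at 1 h and 52.4% at 4 h. The spread of Timp was 11.1%, 7.83%, 17.7% and 15.4% in the same order.

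**Figure D1:**
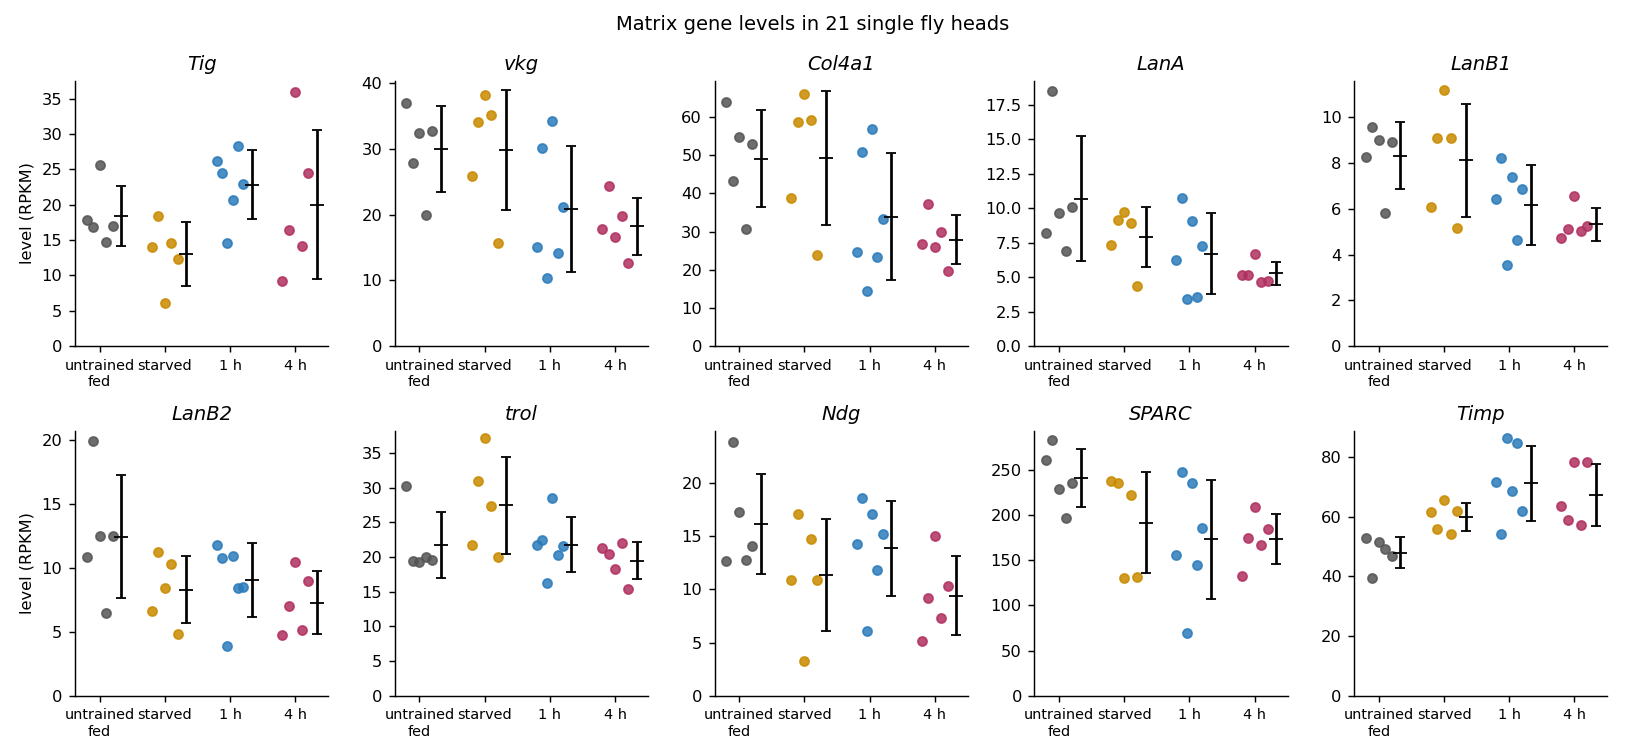
Level of each matrix gene (vertical axis, RPKM from 0) in each of the 21 heads (points, in groups of untrained fed, starved, 1 h and 4 h after training), with the mean and SD of each group as a line with caps. Timp is higher in every trained and starved head than in every untrained fed head, LanA is lower in every 4 h head than in every untrained fed head, and Tig spreads from 9.17 to 36.0 RPKM at 4 h.

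Each head gave between 36019199 and 67792299 reads assigned to genes (median 48817520). Every pair of replicates differed by more than sampling noise (chi-square of at least 23.2 per gene). In 1 untrained fed head (replicate 2), 3.17% of reads were on small structural RNAs, and its total of 820048 RPKM was the highest of all heads. The same head held the most LanA (18.5 RPKM), LanB2 (19.9 RPKM), Ndg (23.9 RPKM) and SPARC (283 RPKM) of all heads. It also held the least Timp (39.4 RPKM), and it is part of every untrained fed mean below. Markers of neurons, glia and photoreceptors were present in every head (8 of 8, with the rhodopsin gene ninaE at 8549 to 15139 RPKM). Ovary and germ line markers were not above 8.95 RPKM in any head for the 5 of 7 genes found. The summed level of fat body markers was 29078 to 64227 RPKM in untrained fed heads and 131 to 21406 RPKM in the starved and trained heads, without overlap. It was led by the yolk protein gene Yp1 and rests on 9 of 10 genes, of which Fbp1 and Fbp2 were below 1 RPKM in every head. Against untrained fed heads, 3 of the 7 fat body genes tested fell in starved heads (Yp1, Yp2 and Yp3, where 1.51% of all genes changed), 5 at 1 h (Yp1, Yp2, Yp3, apolpp and Lsp2, where 8.98% changed) and 2 at 4 h (Yp3 and Lsp2, where 3.4% changed). In each of these comparisons 1 of the 7 was higher and did not pass the test. It was Lip4 in starved heads (log2 fold change 0.97, adjusted p = 0.202) and Lsd-1 at 1 h and 4 h (0.91 and 0.92, adjusted p = 0.446 and 0.531). The summed level of hemocyte markers was 132 to 297 RPKM in untrained fed heads and 111 to 136 RPKM at 4 h, from 10 of 10 genes, none at 0 in every head, with crq the most abundant. At 4 h, 4 of the 10 hemocyte genes fell against untrained fed heads (NimC1, He, Sr-CI and crq, with a median log2 fold change of −0.71 over the 10) and 2 against starved heads (Sr-CI and crq, with a median of −0.32, where 6.37% of all genes changed). Whether these cell types had a part in the differences below was not tested.

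Tig, on the minus strand of chromosome 2L (BDGP6.54, 6415179 to 6423310), did not pass the test in any of the 6 comparisons. Its level was 17.9, 16.8, 25.6, 14.7 and 17.0 RPKM in the untrained fed heads. In the starved heads it was 14.0, 18.4, 6.07, 14.6 and 12.3 RPKM. At 1 h after training the 6 heads ran from 14.5 to 28.3 RPKM with a median of 23.7. At 4 h the heads had 9.17, 16.4, 36.0, 14.1 and 24.4 RPKM. Starved heads were the lowest group on average (13.1 ± 4.52 RPKM, SD, n = 5) and 1 h heads the highest (22.8 ± 4.84 RPKM, SD, n = 6), with 5 of the 6 heads at 1 h above the highest starved head.

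All groups were compared with limma on log2(RPKM + 1), with p-values adjusted by the Benjamini-Hochberg method over the 10501 genes tested, and a gene is said to have changed where that adjusted p was under 0.05. Fold changes on this scale understate those of genes near 1 RPKM. The gap in Tig between 1 h and starved heads, a log2 fold change of 0.81 ± 0.28 (SE), had the lowest p of its comparisons but an adjusted p of 0.213. The difference from untrained fed heads was 0.29 ± 0.28 at 1 h and −0.0016 ± 0.30 at 4 h (adjusted p = 0.518 and 0.998). At 4 h the mean was 1.53 times that of starved heads in RPKM, but 3 of the 5 heads lay within the starved range (log2 fold change 0.51 ± 0.30, adjusted p = 0.331).

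The type IV collagen genes, vkg and Col4a1, lie head to head on chromosome 2L (BDGP6.54, vkg from 5012144 to 5028191 on the minus strand, Col4a1 from 5029609 to 5037279 on the plus strand), with 1417 bases between them. Their products are the chains of 1 heterotrimer. Col4a1 was at 63.9, 43.1, 54.7, 30.6 and 52.9 RPKM in the untrained fed heads. The starved heads held 38.7, 58.7, 65.9, 59.3 and 23.7 RPKM. The 1 h heads ran from 14.4 to 56.8 RPKM with a median of 29.0. At 4 h the values were 26.8, 37.2, 25.9, 29.8 and 19.7 RPKM. All 5 heads at 4 h lay below the mean of the starved heads and below the mean of the untrained fed heads, but the ranges overlapped in both comparisons.

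On the log2 scale Col4a1 differed by −0.74 ± 0.33 at 4 h from starved heads (adjusted p = 0.191) and by −0.78 ± 0.33 from untrained fed heads (adjusted p = 0.199). For vkg the same differences were −0.65 ± 0.29 and −0.69 ± 0.29 (adjusted p = 0.194 and 0.197). At 1 h, Col4a1 differed by −0.58 ± 0.32 from starved and by −0.62 ± 0.32 from untrained fed heads, and vkg by −0.55 ± 0.28 and −0.59 ± 0.28. Starved and untrained fed heads had close means for both genes (log2 differences of −0.04 each). None of these values passed the test. Hemocyte genes also fell in the 4 h group, as given above. Of 10 muscle genes tested, 0 were above 0 at 1 h or at 4 h against starved heads, and none passed the test. Their median log2 fold changes were −0.64 and −0.68. The median of all genes at 1 h was −0.0046, and at 4 h 50.5% of all genes were above 0. Against untrained fed heads the muscle medians were −0.44 at 1 h and −0.47 at 4 h. There 1 of the 10 muscle genes, Zasp66, was above 0 at both times (0.39 and 0.25). The part of either cell type was not tested.

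The laminin chains, which form 1 trimer, were lowest at 4 h. LanA, the alpha chain, was at 8.22, 18.5, 9.66, 6.92 and 10.1 RPKM in untrained fed heads. At 4 h it was at 5.15, 5.17, 6.64, 4.62 and 4.72 RPKM, so that every head was below every untrained fed head. The log2 fold change was −0.83 ± 0.27, with an adjusted p of 0.0984, which does not pass the threshold. Of all genes tested, 4.76% had every 4 h head below every untrained fed head. The starved heads (4.35 to 9.73 RPKM) and the 1 h heads (3.41 to 10.7 RPKM) overlapped both groups.

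LanB1, the beta chain, had a mean of 8.32 ± 1.47 RPKM in untrained fed heads, 8.13 ± 2.47 in starved heads, 6.17 ± 1.76 at 1 h and 5.33 ± 0.718 at 4 h (SD). Its log2 fold change at 4 h was −0.49 ± 0.20 against starved heads (adjusted p = 0.144) and −0.55 ± 0.20 against untrained fed heads (adjusted p = 0.131). LanB2, the gamma chain, went from 12.4 ± 4.84 RPKM in untrained fed heads to 8.28 ± 2.60, 9.04 ± 2.87 and 7.26 ± 2.44 RPKM in starved, 1 h and 4 h heads. Its difference at 4 h was −0.68 ± 0.29 against untrained fed heads (adjusted p = 0.205) and −0.17 ± 0.29 against starved heads (adjusted p = 0.793).

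Perlecan, the heparan sulfate proteoglycan encoded by trol, was highest in starved heads (27.4 ± 6.95 RPKM, from 20.03 to 37.1) and lowest at 4 h (19.5 ± 2.67 RPKM, from 15.4 to 22.0). Those groups differed by −0.45 ± 0.17 on the log2 scale, with an adjusted p of 0.116. In untrained fed heads trol was at 21.7 ± 4.76 RPKM, where replicate 1 (30.2 RPKM) stood apart from the other heads (19.3 to 19.98 RPKM).

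Nidogen, which links laminin to collagen IV, was at 12.7, 23.9, 17.3, 12.8 and 14.1 RPKM in untrained fed heads and at 10.9, 17.1, 3.27, 14.8 and 10.9 RPKM in starved heads. At 1 h the heads ran from 6.13 to 18.6 RPKM with a median of 14.7. At 4 h they held 5.13, 9.18, 15.1, 7.34 and 10.3 RPKM, so that 4 h and untrained fed heads overlapped. The log2 fold change at 4 h was −0.75 ± 0.35 against untrained fed heads (adjusted p = 0.234) and −0.17 ± 0.35 against starved heads (adjusted p = 0.824).

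SPARC had a mean of 241 ± 32.6 RPKM in untrained fed heads, and 192 ± 55.7, 173 ± 65.8 and 174 ± 27.8 RPKM in starved, 1 h and 4 h heads. The log2 fold changes of SPARC against untrained fed heads were −0.37, −0.57 and −0.48 in the same order, with adjusted p-values of 0.445, 0.157 and 0.333. The lowest level of SPARC in any head, 68.9 RPKM, was in the 1 h head (replicate 3) that also held the lowest vkg, Col4a1, LanA, LanB1 and LanB2.

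Timp was the 1 gene of the 10 that changed in the fit used here. It inhibits the matrix metalloproteases, of which the fly has a secreted and a membrane-bound form. Timp was at 52.9, 39.4, 51.6, 49.1 and 46.7 RPKM in untrained fed heads. The starved heads held 61.5, 55.9, 65.6, 54.2 and 62.0 RPKM. The 1 h heads ran from 54.2 to 86.5 RPKM with a median of 70.0, and the 4 h heads held 63.5, 58.9, 78.4, 57.3 and 78.3 RPKM. All 16 starved and trained heads were above all 5 untrained fed heads.

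Against untrained fed heads Timp rose by a log2 fold change of 0.55 ± 0.12 at 1 h (adjusted p = 0.0123), or 1.46-fold, and by 0.47 ± 0.12 at 4 h (adjusted p = 0.0426), or 1.39-fold. In those comparisons 8.98% and 3.4% of all genes changed, and 2.97% and 4.16% had every trained head above every untrained fed head. Starved heads differed from untrained fed heads by 0.32 ± 0.12, which did not pass the test (adjusted p = 0.180), and 1.9% of genes had every starved head above every untrained fed head. Against starved heads the values were 0.23 ± 0.12 at 1 h and 0.16 ± 0.12 at 4 h (adjusted p = 0.402 and 0.500). The call at 1 h was kept when any single head of the 2 groups was left out, but not when only these 2 groups were fitted (adjusted p = 0.0634). The call at 4 h was lost without the filter on low values (adjusted p = 0.0601), and when 1 of 8 heads was left out (untrained fed replicates 2, 3, 5 or 6, or 4 h replicates 1, 3, 4 or 6, with log2 fold changes from 0.41 to 0.52). Timp lies within the gene of the synaptic vesicle protein Synapsin (Syn), on the other strand of chromosome 3R (10203875 to 10213007), and 249 of its 1591 exonic bases are shared with Syn. The libraries carry no strand, so reads there cannot be told apart. Syn itself differed from untrained fed heads by 0.15 at 1 h and 0.16 at 4 h (adjusted p = 0.181 and 0.252). Its mean was 88.4 RPKM in untrained fed, 98.7 in starved, 97.9 in 1 h and 98.3 in 4 h heads. The means of Timp were lower, at 48.0, 59.8, 71.2 and 67.3 RPKM in the same order. How much of the Timp level came from the shared bases was not tested.

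**Figure D2:**
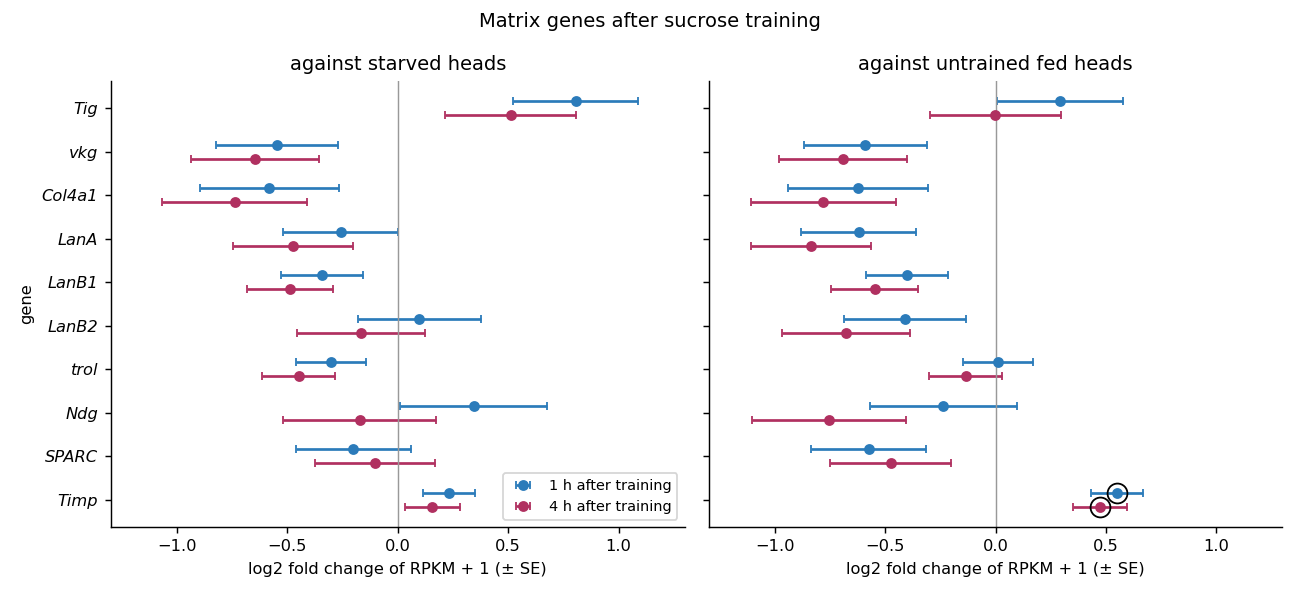
Log2 fold change of RPKM + 1 (horizontal axis, with the SE as bars) of each matrix gene at 1 h and 4 h after training, against starved heads (left) and untrained fed heads (right). The circles mark the values that passed the test, both for Timp against untrained fed heads. Against starved heads Tig lies at 0.81 and 0.51, and Col4a1 at −0.58 and −0.74.

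Counted over the 10 genes, 0 changed in starved against untrained fed heads (1.51% of all genes changed), 0 at 1 h against starved heads (0.552%), 0 at 4 h against starved heads (6.37%) and 0 between 4 h and 1 h (0.0857%). At an unadjusted p under 0.05 the counts were 1, 1, 4 and 0 of 10 in the same order, against 19.4%, 13.6%, 22.2% and 12.8% of all genes. With the untrained fed heads as control, 1 of 10 changed at 1 h, where 8.98% of all genes changed, and 1 of 10 at 4 h, where 3.4% changed, and 5 of 10 at 1 h and 7 of 10 at 4 h had an unadjusted p under 0.05, against 28.2% and 20.1% of all genes. At 4 h the genes under that unadjusted level were vkg, Col4a1, LanA, LanB1, LanB2 and Ndg, all lower, and Timp, higher. The comparisons share their control heads and are not independent of each other. Nor are the genes, since several varied together from head to head (r = 0.99 for vkg and Col4a1, given below). The counts of 10 are thus not counts of separate results.

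The median log2 fold change of the 10 genes was −0.61 at 4 h against untrained fed heads and −0.41 at 1 h. Against starved heads the medians were −0.31 at 4 h and −0.23 at 1 h, and between starved and untrained fed heads −0.21. The median of all genes tested lay between −0.014 (1 h against untrained fed) and 0.0016 (4 h against starved). Tig and Timp were the only genes of the 10 above 0 at 4 h against starved heads, where 50.5% of all genes were above 0.

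Head by head, Tig varied with nidogen, and no relation with collagen IV was detected. The relation was tested for the variation that is left once the group means are taken away, so that a difference shared by a whole group could not produce it. Tig served as a covariate beside the group in a limma fit of all other genes. Over 10500 genes, 3.27% had a positive slope on Tig that passed the adjusted threshold and 0.0476% a negative one. Of the 9 matrix genes 1 passed, Ndg, with a slope of 0.95 ± 0.16 (SE) on the log2 scale and an adjusted p of 0.00535.

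The starved head with the least Tig (replicate 3, 6.07 RPKM) also had the least Ndg of all heads (3.27 RPKM), and the 4 h head with the most Tig (replicate 4, 36.0 RPKM) had the most Ndg of its group (15.1 RPKM). Pearson's r between the deviations of Tig and Ndg from their group means was 0.81 (permutation p = 0.00028, permuted within groups) and Spearman's rho was 0.71 (p = 0.00145), over 21 heads, of which 16 lay on the same side of the group mean for both genes. Without the 2 heads farthest from the median of Tig, the same starved and 4 h heads, r was 0.72 and rho 0.62. The call in the fit was lost without that starved head alone (slope 0.76, adjusted p = 0.0790) and when all heads were scaled to the same total RPKM (slope 0.78, adjusted p = 0.0581). A total of 45 pairs of the 10 genes was examined in this way.

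SPARC and LanB2 came next. Their deviations had r = 0.57 (permutation p = 0.00213) and r = 0.55 (permutation p = 0.00976) with those of Tig, with rho of 0.47 (p = 0.0369) and 0.56 (p = 0.0167). In the fit over all genes neither passed the threshold (adjusted p = 0.121 and 0.131). Without the 2 farthest heads r was 0.52 for SPARC and 0.62 for LanB2.

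The remaining 6 genes showed r between −0.26 (trol) and 0.20 (LanB1) with Tig. For Col4a1 it was 0.02 (permutation p = 0.916) with rho of −0.07, and for vkg −0.03 (permutation p = 0.908) with rho of −0.13. The starved head with the least Tig had the most Col4a1 of all 21 heads (65.9 RPKM) and the most vkg (38.2 RPKM). The ratio of Tig to Col4a1 in RPKM ran from 0.0921 to 1.39 over the heads, while that of Col4a1 to vkg ran from 1.396 to 1.73.

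**Figure D3:**
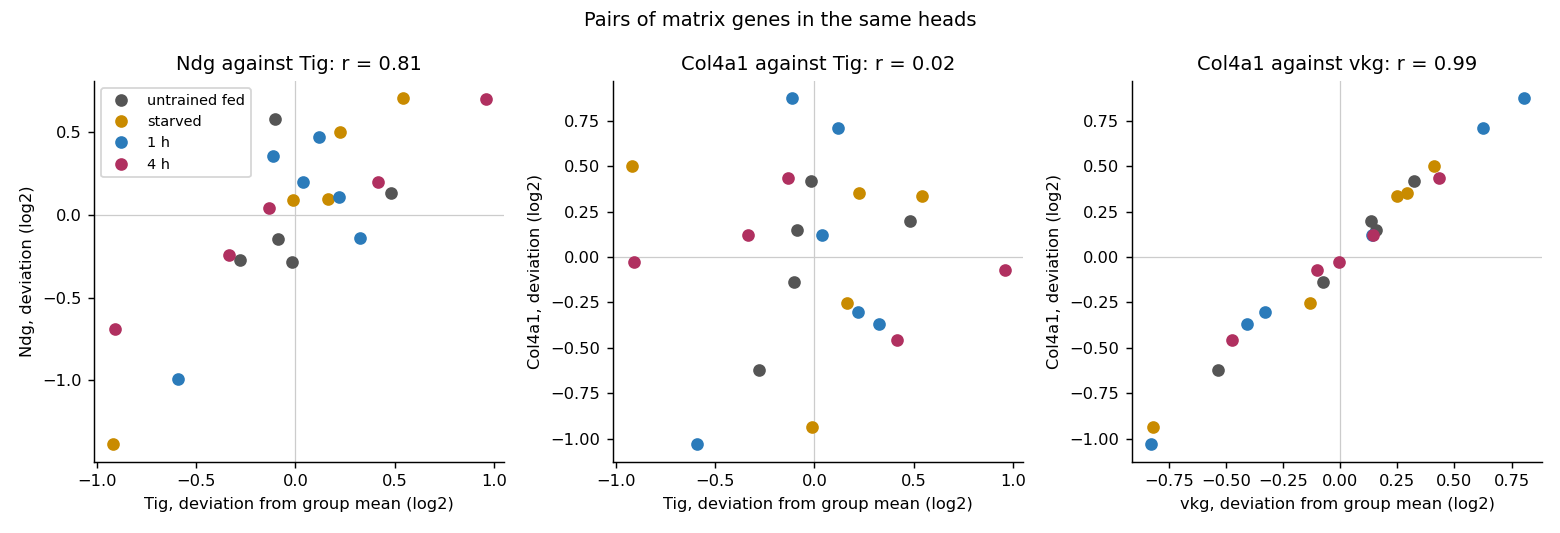
Deviation of log2(RPKM + 1) from the group mean in each of the 21 heads, for Ndg against Tig (left), Col4a1 against Tig (middle) and Col4a1 against vkg (right), with 1 point per head colored by group. Pearson's r was 0.81, 0.02 and 0.99.

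The collagen IV chains moved together more closely than any other pair. The r of vkg and Col4a1 was 0.99 (permutation p = 1e-05, the smallest that 100000 permutations can give) and rho 0.99, with all 21 heads on the same side of the group mean for both. Of all 10500 genes, vkg was the gene with the lowest p in the fit on Col4a1 (adjusted p = 1.53e-12).

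Collagen IV, the laminins and perlecan, 6 genes and 15 pairs, all had positive r among themselves, from 0.27 (LanB2 and trol) to 0.99. For 10 of these 15 pairs the adjusted p over all genes was under 0.05 whichever gene was the covariate, against 6.3% of all genes with such a positive slope on vkg, 6.22% on Col4a1, 3.03% on LanA, 2.5% on LanB1, 1.06% on LanB2 and 8.18% on trol. Within laminin, LanA and LanB1 had r = 0.87 (permutation p = 1e-05), LanB1 and LanB2 r = 0.82 (permutation p = 5e-05) and LanA and LanB2 r = 0.77 (permutation p = 8e-05). The ratio of LanA to LanB1 in RPKM stayed between 0.768 and 1.93 over all heads. Col4a1 had r = 0.82 with LanB1 (permutation p = 0.0002), 0.79 with trol (permutation p = 0.00015) and 0.71 with LanA (permutation p = 0.00336). Pairs of LanB2 with collagen IV rested on few heads: without 1 h replicate 3 and starved replicate 5, r fell from 0.55 to 0.26 for Col4a1 and from 0.51 to 0.22 for vkg. The set of 6 genes serves as a description, and Ndg was left out of it. The r of Ndg was 0.20 with vkg, 0.22 with Col4a1 and −0.16 with trol. With LanA, LanB1 and LanB2 it was 0.45, 0.32 and 0.65.

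SPARC varied both with Ndg and with genes of that set. It had r = 0.79 with Ndg (permutation p = 1e-05, adjusted p = 0.00519 for Ndg on SPARC, a slope on which 6.59% of all genes passed), 0.73 with LanB2, 0.69 with LanA and 0.65 with Col4a1. Without the 2 farthest heads these were 0.69, 0.58, 0.66 and, for Col4a1, 0.39. Timp had negative r with every gene of the 10 other than Tig (0.13), from −0.25 with trol to −0.62 with LanA (permutation p = 0.00715), but none of these passed the threshold over all genes (adjusted p = 0.0614 for LanA on Timp, where 1.93% of all genes passed with a negative slope). In all, 34 of the 45 pairs had r above 0, and the share over all pairs of genes was not computed.

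**Figure D4:**
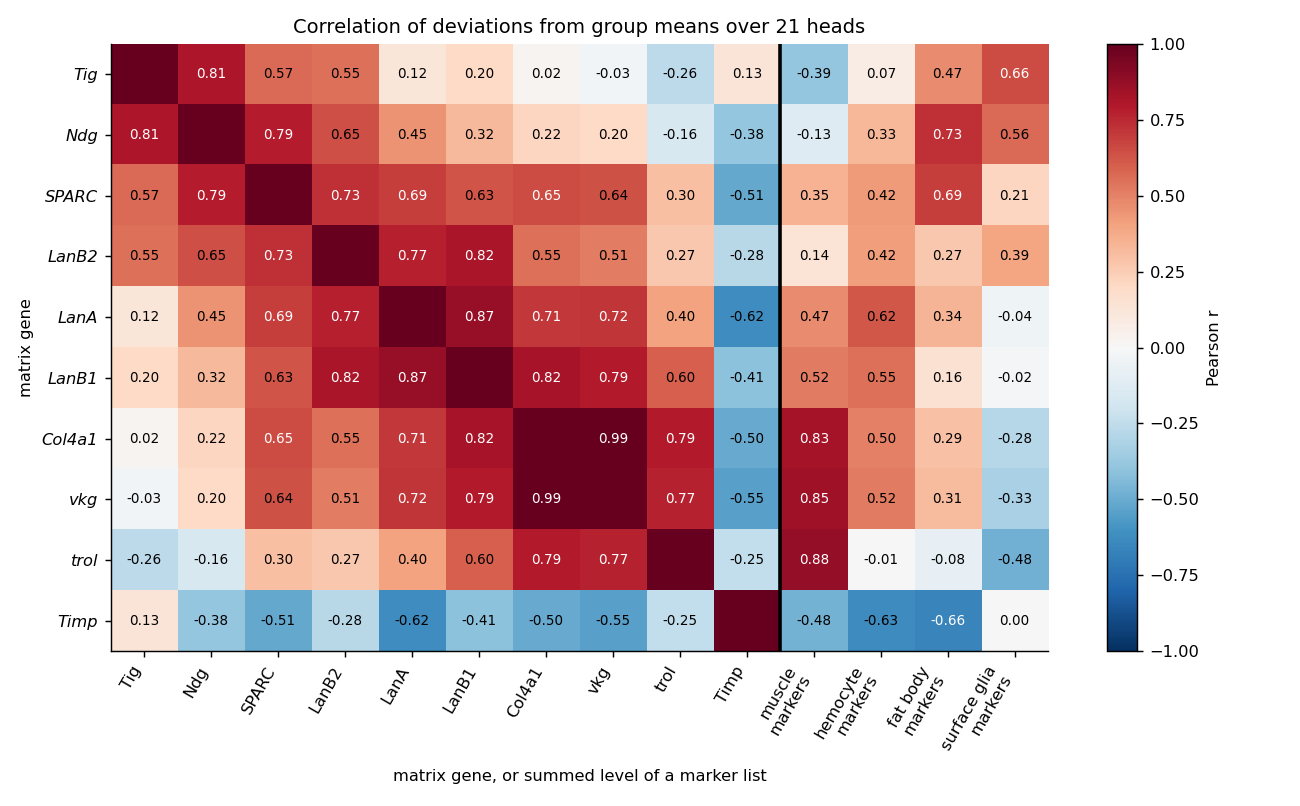
Pearson's r of the deviations from group means over the 21 heads (color and number, from −1 to 1) between the 10 matrix genes, and to the right of the black line between each gene and the summed level of 4 lists of cell type markers. Tig has r = 0.81 with Ndg and 0.02 with Col4a1, while Col4a1, vkg and trol have r of 0.83, 0.85 and 0.88 with the muscle markers.

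The genes also differed in which cell type markers varied with them. The summed level of 10 muscle genes (among them the myosin heavy chain gene Mhc and the actin gene Act57B) had r = 0.88 with trol, 0.85 with vkg and 0.83 with Col4a1. These 3 genes passed the threshold in the fit on the muscle sum (adjusted p = 0.000186, 0.000497 and 0.000849), as did 6.9% of all genes with a positive slope. With Tig the muscle sum had r = −0.39 (permutation p = 0.127, adjusted p = 0.243 in the fit). The muscle sum ran from 908 to 2902 RPKM in starved heads and from 705 to 1799 RPKM at 4 h.

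Tig varied with the summed level of 5 genes of the perineurial and subperineurial glia, the surface glia of the brain that form the blood-brain barrier (Indy, moody, Gli, Mdr65 and Tret1-1). The sum mostly follows Tret1-1 (median 109 RPKM) and Indy (47.8 RPKM), and the genes were not tested singly as covariates. The r was 0.66 (permutation p = 0.00144) and rho 0.62 (p = 0.00485), and 0.60 without the 2 farthest heads, with an adjusted p of 0.0212 in the fit. Of all genes, 11.5% passed with a positive slope on this sum, the highest share of the 5 marker lists. Ndg had r = 0.56 with the same sum (adjusted p = 0.0563), and the other 8 genes did not pass. The sum had a median of 292 RPKM in untrained fed heads, 184 in starved heads, 209 at 1 h and 176 at 4 h. Its genes did not share a direction. Between starved and untrained fed heads Tret1-1 had a log2 fold change of −1.11, while 4 of the 5 genes were above 0 (0.048 for moody to 0.70 for Indy). None of the 5 passed the test in that comparison.

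The fat body sum, which rests on yolk protein genes, had r = 0.73 with Ndg (permutation p = 0.00437, adjusted p = 0.0129 in the fit) and 0.69 with SPARC (permutation p = 0.00369, adjusted p = 0.0254). With Timp its r was −0.66 (permutation p = 0.00032, adjusted p = 0.0411). In that fit 5.49% of all genes passed with a positive slope and 0.952% with a negative one. Without the 2 heads farthest from the median of Ndg, its r with the fat body sum was 0.39. The r with Tig was 0.47 (permutation p = 0.0527, adjusted p = 0.165). With the hemocyte sum, r was 0.07 for Tig, 0.62 for LanA and −0.63 for Timp, and none of the 10 genes passed in the fit (adjusted p = 0.114 for LanA and 0.1199 for Timp, against 0.276% of all genes with a positive and 0.314% with a negative slope). The part of any of these cell types in the relations between the matrix genes was not tested.

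The 5 genes whose deviations were most like those of Tig over the 21 heads were Kaz1-ORFB (r = 0.90), CG6426 (r = 0.87), lncRNA:CR43650 (r = 0.87), CG5618 (r = 0.87) and alpha-Est2 (r = 0.86). Ndg was 37th in this order, SPARC 845th, LanB2 920th and Col4a1 5232nd of 10500 genes. The values share library and depth, and r is given here as a description.

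Outside the 10 genes, the largest change that passed the test in 4 lists of matrix genes was that of a metalloprotease. Of 7 matrix enzymes and assembly factors tested, 1 rose at 1 h against starved heads, where 0.552% of all genes changed. It was Mmp1, the secreted matrix metalloprotease that Timp inhibits. Mmp1 was at 4.97 to 6.91 RPKM in starved heads and 6.00 to 7.64 RPKM in untrained fed heads. At 1 h it was at 8.13 to 28.3 RPKM with a median of 11.8. Every 1 h head was above every untrained fed head, as held for 2.97% of all genes. At 4 h it was at 5.67 to 11.7 RPKM. The log2 fold change of Mmp1 at 1 h was 1.10 ± 0.23 against starved heads (adjusted p = 0.0349) and 0.91 ± 0.23 against untrained fed heads (adjusted p = 0.0228), and at 4 h it was 0.57 ± 0.24 against starved heads (adjusted p = 0.167). The first of these calls was lost without any 1 of 6 heads (starved replicates 2, 3, 4 or 5, or 1 h replicates 1 or 5, with log2 fold changes from 1.03 to 1.13), without the filter (adjusted p = 0.0648), at the same total RPKM (0.0703) and with only the compared groups fitted (0.171). The second was lost with only the compared groups fitted (0.0995) and without untrained fed replicate 6 or 1 h replicate 5 (0.89 and 0.84).

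Of 9 matrix receptors tested, 1 fell at 4 h against starved heads, where 6.37% of all genes changed. It was mew, the PS1 integrin alpha chain that binds laminin. Untrained fed heads held 6.33 ± 0.91 RPKM of mew, and the 4 h difference from them did not pass (−0.23 ± 0.14, adjusted p = 0.356). Against starved heads mew fell by 0.56 ± 0.14 on the log2 scale at 4 h (adjusted p = 0.0229, from 8.18 ± 1.25 to 5.32 ± 1.36 RPKM). That call was lost without starved replicates 2 or 5 or 4 h replicates 4 or 6 (adjusted p from 0.0539 to 0.0779), at the same total RPKM (0.132), with sample quality weights (0.0604) and with only the compared groups fitted (0.0544). The receptor chains of Tiggrin, if (the PS2 alpha chain) and mys (the beta chain), did not pass in any comparison, with log2 fold changes of 0.38 and −0.0038 at 1 h against starved heads. Of 12 other matrix components tested, 1 rose at 1 h against untrained fed heads, a share close to the 8.98% of all genes. It was Mp, a collagen of the type XV and XVIII family, which rose by 0.36 ± 0.09 (adjusted p = 0.0221). Of 10 genes of the integrin adhesion complex 1 rose at 1 h and at 4 h against untrained fed heads, where 8.98% and 3.4% of all genes changed. It was by, the fly tensin, with log2 fold changes of 0.26 ± 0.07 at 1 h and 0.28 ± 0.07 at 4 h (adjusted p = 0.0251 and 0.0360). Mp lost its call without untrained fed replicates 2, 3 or 6 or 1 h replicate 5, and by lost it at 1 h without untrained fed replicates 2, 3 or 6 or 1 h replicates 3 or 5, and at 4 h in 8 of 10 such fits. Both genes lost each call with only the compared groups fitted (adjusted p from 0.0582 to 0.127), and at 1 h with the heads scaled to the same 75th percentile (0.0518 for Mp and 0.0678 for by).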

How the data were processed

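Single female fly heads were measured by mRNA sequencing with non-stranded polyA libraries. The authors deposited 1 table of RPKM values, 1 value per gene and head. The submitters' processing notes name CASAVA 1.8.2, TopHat2 2.0.13, edgeR 3.18.1 and the dm6 genome, while another paragraph of the study's methods names TopHat with Bowtie, dm3 and cuffdiff and uniquely mapping reads. Divided by the worth of a single read at the annotated length, the deposited RPKM came out whole within 0.01 read for 16497 of the 17212 genes above 0. For the other 715 a length was searched for that made the values whole, so for them wholeness is no check. The reads per head were taken from these values. The RPKM values already hold a scaling between heads, since the library size behind them was 0.813 to 1.14 times the reads on genes. Identifiers were matched to FlyBase symbols for 17255 of 17559 genes. The identifier of trol is an older one that was matched through a supplementary table of the study, and its recovered length was 20786 bases against 20674 annotated. Positions are those of BDGP6.54.

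Genes with at least 1 RPKM in at least 5 heads (10501, all 10 matrix genes among them) were tested with limma 3.58.1 in R 4.3.3, on log2(RPKM + 1) with a mean-variance trend, in 1 fit of all 4 groups without a replicate block. Covariation was tested by the same fit with a gene or a summed marker list as a covariate, and by r and rho of deviations from group means with 100000 permutations within groups (Python 3.11.15, numpy 2.4.6, scipy 1.17.1). The scripts were tested on simulated data. The p-values set differences against the spread between single flies within groups. They do not cover variation between training runs, whose number is not stated.

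The genes and lists were chosen with earlier results of these data known. Of the lists beside the matrix genes, the text names those past the threshold, at most 4 per list and comparison. In the lists, Tango1, AdamTS-A, scb, FASN1, wupA, vas and nos were not matched, and Pxn is in both the enzyme and the hemocyte list. Exons of Tig, Ndg and trol overlap those of CG13982, CG34222 and mir-4955 by 157, 158 and 23 bases, where reads cannot be told apart. Alternatives changed the pseudocount, filter, scaling, trend, weights and heads.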

Additional observations from a re-analysis of the deposited data

Results flagged for a closer look

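In 5 of the 40 sets of heads (10 genes in 4 groups) the highest head stood apart from the other heads of its group by more than Dixon's 95% critical value, which chance exceeds in about 1 of 20 sets. In untrained fed heads these were Tig in replicate 3 (25.6 RPKM), LanA in replicate 2 (18.5 RPKM) and trol in replicate 1 (30.2 RPKM). In the 4 h group the same head, replicate 4, stood apart for LanA (6.64 RPKM) and LanB1 (6.57 RPKM), and it also held the most Tig of all heads.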

How the results depend on the processing

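The 2 calls of Timp and the call of Ndg on Tig were the results that decided the counts, and the cause of each change below was not tested. The count of changed genes at 4 h against untrained fed heads, 1 of 10, became 0 without the filter, 2 with only the groups compared (Timp and LanB1), 8 with sample quality weights, and 0 to 1 when 1 head was left out. At 1 h against untrained fed heads it became 0 with only the groups compared (Timp, adjusted p = 0.0634). With sample quality weights it was 1 for starved against untrained fed heads, 3 at 4 h against starved heads and 1 for 4 h against 1 h, where 0 had passed, and the count that varied with Tig was 2. That count of 1 became 0 at the same total RPKM (Ndg, slope 0.78, adjusted p = 0.0581) and 0 to 1 when 1 head was left out. Shares of all genes that passed under these settings, and under the replicate block below, are not given here. The counts are therefore not read as results about the matrix genes.

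The replicate numbers did not pair the heads (median r of deviations −0.026 over 27 pairs of the same number, against 0.0013 over 138 other pairs). With the replicate block the count was 2 at 1 h (Timp and LanA) and 0 at 4 h against untrained fed heads (Timp, adjusted p = 0.119) and 0 for covariation with Tig (Ndg, slope 0.70, adjusted p = 0.0845), trol at 1 h against untrained fed heads was −0.014, and the slopes on Tig of Col4a1, LanA and LanB1 were −0.19, −0.18 and −0.027.

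Scaling all heads to the same total RPKM moved the median of all genes against untrained fed heads by 0.28 (starved), 0.25 (1 h) and 0.30 (4 h) and made 91.0%, 95.1% and 96.1% of calls higher, against 37.1%, 57.2% and 50.1%. With the same 75th percentile the shares were 33.1%, 48.5% and 62.2%. For 4 h against starved heads the share was 68.8% at the same total and 69.2% at the same 75th percentile, against 56.8%, and for 1 h against starved heads 79.1% and 69.2%, against 81.0%. For 4 h against 1 h it was 25.0% and 72.0%, against 33.3%. Signs that turned were of values that had not passed the test. At the same total RPKM these were vkg 0.27, Col4a1 0.28 and LanB1 0.24 (starved against untrained fed), Ndg 0.050 at 1 h, Tig 0.33 and trol 0.20 at 4 h against untrained fed heads, and the slope of LanA on Tig, −0.068. At the same 75th percentile they were Tig 0.065 at 4 h against untrained fed heads and the slopes of Col4a1 (−0.029) and Timp (−0.0021). With quality weights they were trol 0.028 at 4 h against untrained fed heads, SPARC −0.18 at 4 h against 1 h and the slope of Col4a1, −0.029. The slope of Col4a1 was −0.040 in starved and trained heads only, and without the group term −0.20, with LanA −0.014 and LanB1 −0.039.

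Leaving out 1 head turned the sign of further values that had not passed: starved against untrained fed, vkg −0.18 to 0.16, Col4a1 −0.20 to 0.19 and LanB1 −0.17 to 0.074; 1 h against untrained fed, trol −0.068 to 0.13; 4 h against untrained fed, Tig −0.24 to 0.22; 1 h against starved, LanB2 −0.058 to 0.29, Ndg −0.0029 to 0.54 and SPARC −0.33 to 0.039; 4 h against starved, Ndg −0.52 to 0.0023; 4 h against 1 h, vkg −0.27 to 0.061, Col4a1 −0.36 to 0.018 and SPARC −0.14 to 0.22; and slopes on Tig, vkg −0.19 to 0.12, Col4a1 −0.17 to 0.22, LanA −0.014 to 0.27 and Timp −0.021 to 0.12. With at least 675 reads per gene and head, counting error was small beside the spread between heads.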
